A study of Mus musculus with 2 samples.

Results

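The cyclic nucleotide phosphodiesterases described here are 10 genes, chosen by name from the 32285 genes measured: Pde4b, Pde4d, Pde7b, Pde8b, Pde1a, Pde1c, Pde2a, Pde3a, Pde10a and Pde11a. All 10 were found in the files. The study made 2 single-nucleus RNA libraries of mouse hippocampus, 1 of Capza2+/- hippocampus, in which a single copy of Capza2 is knocked out (heterozygous), and 1 of wild-type (WT) hippocampus, to compare the proportions of cell populations. Capza2 encodes an alpha subunit of the actin capping protein. The age, sex and strain of the mice, the deleted part of the gene and the number of mice behind a library are not given by the sources used here. Because each genotype had 1 library, no difference between genotypes has a replicate check, no test was made, and all intervals are 95% intervals that cover counting error only.

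Phosphodiesterases break down cyclic AMP and cyclic GMP, the messengers made by adenylyl and guanylyl cyclases, and so end signalling through protein kinase A, protein kinase G, Epac proteins and cyclic nucleotide-gated channels. The families differ in what they cut and in what regulates them. Families 4, 7 and 8 are specific for cyclic AMP, and family 4 is the target of rolipram. Family 1 is activated by calcium and calmodulin, and family 2 is stimulated and family 3 inhibited by cyclic GMP. Families 10 and 11 are among those that cut both messengers. In the brain these enzymes are studied for their part in synaptic plasticity and memory, and Pde11a is known for its enrichment in the ventral hippocampus of rodents.

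Promoter windows of 250 bases before to 50 bases after a start were taken from RefSeq on GRCm38.p6, and 26 windows were found for 9 of the 10 genes, all but Pde3a. Each was searched on both strands for the cyclic AMP response element, the site of the transcription factor CREB, because these enzymes set the level of the messenger that acts on it. The full element TGACGTCA was in 0 of the 26 windows and in 1.79% of all 32851 windows of the same length. The short form TGACG, which lies inside the full element, was in 4 of the 26 windows, 1 each of Pde1a, Pde2a, Pde4b and Pde8b, and in 20.8% of all windows. A match is a description of the letters and not a bound site. The windows printed here are those with a short form of Pde1a and Pde2a, whose levels ran most alike over the classes of nuclei, and of Pde4b, whose level differed 412-fold in the Capza2+/- and 414-fold in the WT library between oligodendrocyte-like and dentate granule-like nuclei. In them capitals mark the short form, which reads CGTCA on the printed strand. The Pde1a window lies at chr2:80038853-80039152 on the minus strand, the Pde2a window at chr7:101450270-101450569 on the plus strand and the Pde4b window at chr4:102421305-102421604 on the plus strand.
Pde1a: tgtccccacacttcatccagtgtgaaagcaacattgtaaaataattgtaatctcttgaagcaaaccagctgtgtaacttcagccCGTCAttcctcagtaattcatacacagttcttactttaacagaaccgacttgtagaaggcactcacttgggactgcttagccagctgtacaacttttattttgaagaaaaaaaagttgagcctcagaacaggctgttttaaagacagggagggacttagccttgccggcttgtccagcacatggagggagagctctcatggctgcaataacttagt
Pde2a: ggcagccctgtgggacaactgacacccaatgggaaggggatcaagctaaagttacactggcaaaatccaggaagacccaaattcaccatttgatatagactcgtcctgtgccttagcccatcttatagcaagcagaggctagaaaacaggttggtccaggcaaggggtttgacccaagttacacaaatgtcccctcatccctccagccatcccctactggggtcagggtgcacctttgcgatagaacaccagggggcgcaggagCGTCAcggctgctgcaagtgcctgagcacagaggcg
Pde4b: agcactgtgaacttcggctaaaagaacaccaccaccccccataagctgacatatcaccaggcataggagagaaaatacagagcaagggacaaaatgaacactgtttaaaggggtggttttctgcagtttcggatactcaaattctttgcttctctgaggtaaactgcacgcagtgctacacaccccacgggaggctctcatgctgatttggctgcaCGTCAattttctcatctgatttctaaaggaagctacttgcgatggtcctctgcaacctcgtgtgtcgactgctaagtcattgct

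On mm10, in the GENCODE M21 annotation, the genes of the cyclic AMP-specific families are placed as follows. Pde4b (ENSMUSG00000028525) lies at chr4:102087543-102607259 on the plus strand. Pde4d (ENSMUSG00000021699) lies at chr13:108449948-109953461 on the plus strand. Pde7b (ENSMUSG00000019990) lies at chr10:20398004-20725078 on the minus strand. Pde8b (ENSMUSG00000021684) lies at chr13:95024454-95250336 on the minus strand. The genes of the other families lie on chromosomes 2, 6, 7 and 17. Pde1a (ENSMUSG00000059173) lies at chr2:79834453-80129458 on the minus strand. Pde1c (ENSMUSG00000004347) lies at chr6:56069804-56569103 on the minus strand. Pde2a (ENSMUSG00000110195) lies at chr7:101421691-101512827 on the plus strand. Pde3a (ENSMUSG00000041741) lies at chr6:141249269-141507448 on the plus strand. Pde10a (ENSMUSG00000023868) lies at chr17:8525372-8986648 on the plus strand. Pde11a (ENSMUSG00000075270) lies at chr2:75989141-76338774 on the minus strand. Pde4d spans 1504 kb and Pde2a 91.1 kb, the longest and the shortest of the 10. No gene on the same strand overlaps them, and among antisense models Gm48420, in Pde8b, had the most UMIs, 152 in the Capza2+/- and 168 in the WT library. The windows printed above lie inside the spans of Pde1a, Pde2a and Pde4b, at internal starts.

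After filters on genes detected, mitochondrial UMIs and doublets, 6795 Capza2+/- and 6094 WT nuclei were kept, with medians of 5770 and 6658.5 UMIs (unique molecular identifiers, counts of single transcripts). The libraries held 62702888 and 58701532 UMIs. They shared 13 barcode sequences, 10 of them among kept nuclei. Nuclei were clustered without any phosphodiesterase gene among the variable genes, and clusters were named "like" a cell type from marker lists. The summed own markers were highest in their own class in both libraries for 9 of 10 named classes. The exception was the dentate granule list, at 2267 CPM (UMIs scaled to a total of 1000000) in Capza2+/- and 2221 CPM in WT dentate granule-like nuclei but at 3013 and 3202 CPM in oligodendrocyte-like nuclei, although the clusters behind the class were led by genes such as C1ql2, Plk5 and Prox1. The 2 excitatory clusters 8 (led by Pdzrn3) and 12 (led by Fn1) and the non-neuronal cluster 20 (led by Vtn, Ebf1 and Abcc9) could not be named and keep their numbers. Cluster 20 was small, with 71 Capza2+/- and 50 WT nuclei at median depths of 1677 and 1999.5 UMIs. Its mean doublet score was 2.11 times that of all kept nuclei, and whether mixed barcodes add to its levels was not tested. Capza2 itself was at 67.5 CPM in the Capza2+/- and 86.0 CPM in the WT library, a log2 ratio of -0.35 (-0.41 to -0.29).

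Each of the 10 genes had its own pattern over the classes, and the order of classes was much alike in both libraries. For 8 of 10 genes the class or cluster with the highest level was the same in both. The exceptions were Pde3a, highest in oligodendrocyte precursor-like nuclei of the Capza2+/- and in inhibitory neuron-like nuclei of the WT library, and Pde7b, highest in cluster 20 of the Capza2+/- and in oligodendrocyte precursor-like nuclei of the WT library. With the classes and clusters ordered by level, 10 of 12 neighbouring pairs overlapped in the range of their 2 library values for Pde3a, 9 for Pde11a, 7 for Pde2a and 3 to 5 for the other 7 genes. Levels are in CPM of all UMIs of a class, and because long genes can give more nuclear counts, genes are compared with each other only per 100 kb of gene span. On that scale, over all nuclei, Pde1a was highest, at 205 (Capza2+/-) and 252 (WT) CPM per 100 kb, followed by Pde4b at 132 and 130. Pde10a was at 112 and 122. Pde3a was lowest, at 4.34 and 5.96, with Pde1c at 5.67 and 5.45. These UMIs come from nuclei, and the sources used here do not say whether intronic reads were counted.

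**Figure D1:**
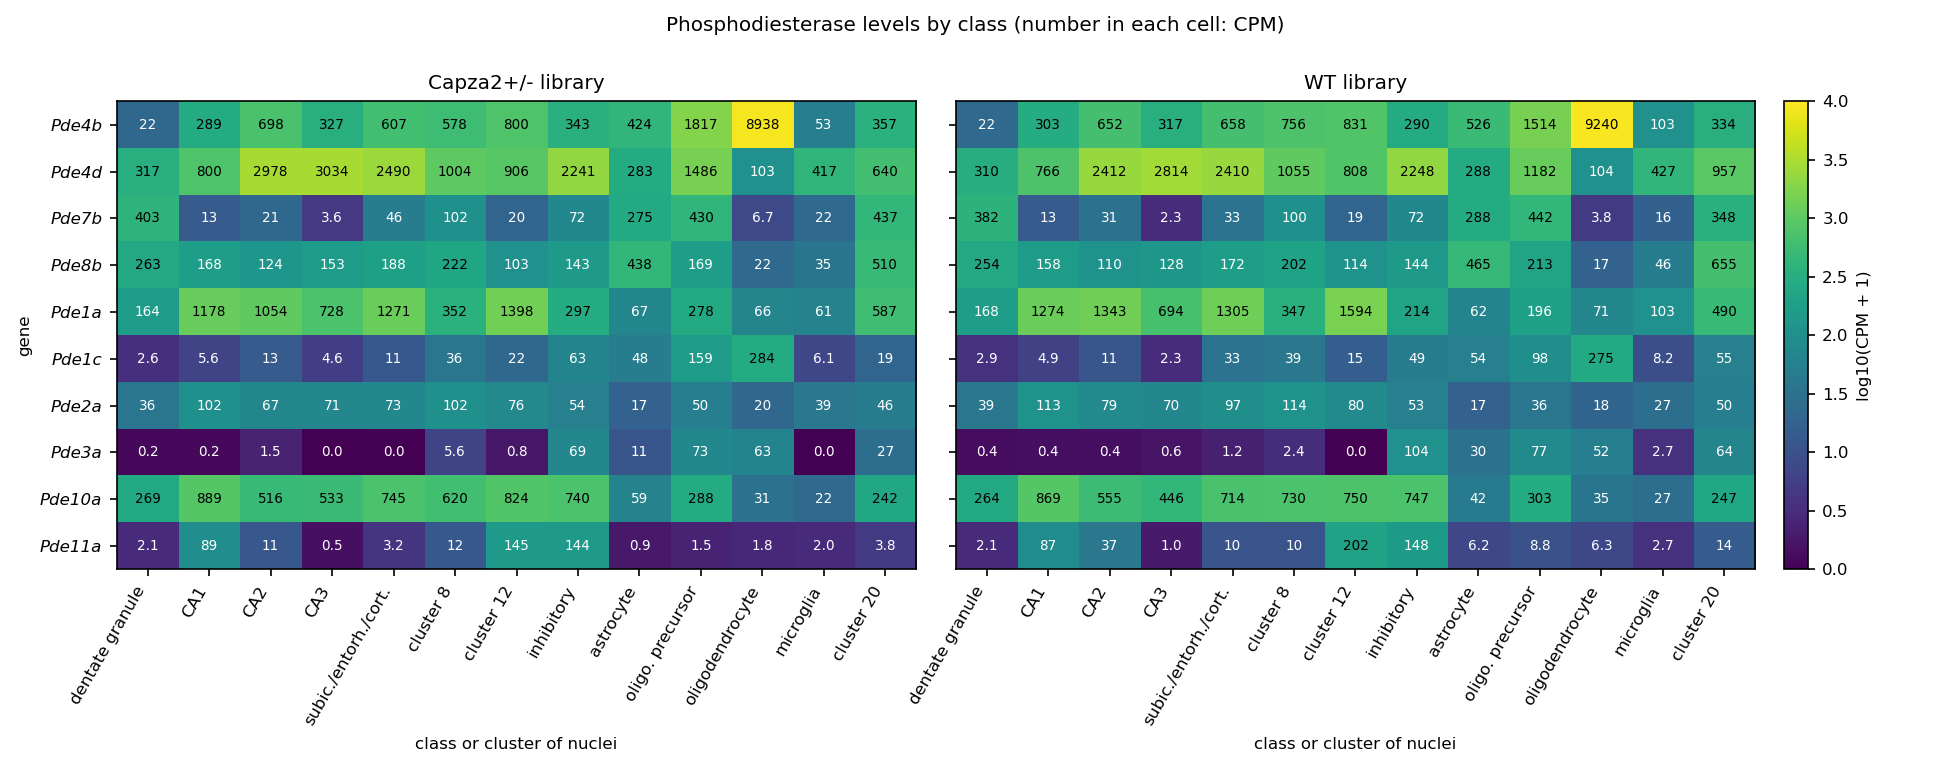
Level of each phosphodiesterase (rows) in 13 classes or clusters of nuclei (columns) in the Capza2+/- library (left) and the WT library (right). Colour is log10(CPM + 1) and the number in each cell is the CPM. Both panels show Pde4b highest in oligodendrocyte-like nuclei (8938 and 9240 CPM) and Pde3a at most 5.56 CPM in every excitatory class or cluster.

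Pde4b, a cyclic AMP-specific enzyme that rolipram inhibits, was highest in the oligodendrocyte lineage. Nuclei like those of oligodendrocytes, the cells that make myelin, had 8938 CPM in the Capza2+/- and 9240 CPM in the WT library. Their precursors had 1817 and 1514 CPM, so the mature class was 4.92-fold (4.64 to 5.21) and 6.10-fold (5.78 to 6.46) above them. At the other end stood dentate granule-like nuclei, with 21.7 and 22.3 CPM, against which the oligodendrocyte-like level was 412-fold and 414-fold higher. When every nucleus was thinned to 1000 UMIs, a Pde4b UMI was found in 99.9% of Capza2+/- and 99.2% of WT oligodendrocyte-like nuclei and in 2.24% and 1.505% of dentate granule-like nuclei. Unthinned, the shares in dentate granule-like nuclei were 10.4% and 10.6%, at median depths of 6603 and 6326 UMIs, against 1752 and 1846 UMIs in oligodendrocyte-like nuclei. Of all Pde4b UMIs, 52.2% in the Capza2+/- and 40.3% in the WT library lay in oligodendrocyte-like nuclei, which were 16.6% and 13.1% of the nuclei kept. Pyramidal neurons held intermediate levels, with 698 and 652 CPM in CA2-like, 327 and 317 CPM in CA3-like and 289 and 303 CPM in CA1-like nuclei.

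Pde4d, the other enzyme of family 4 described here, had another pattern. It was highest in CA3 pyramidal-like nuclei, with 3034 CPM in the Capza2+/- and 2814 CPM in the WT library. CA2-like (2978 and 2412 CPM), subicular, entorhinal or cortical excitatory-like (2490 and 2410 CPM) and inhibitory neuron-like nuclei (2241 and 2248 CPM) followed. CA3 and CA2 are not separated, since the ranges of their 2 library values overlap, and neither are CA2 and the subicular, entorhinal or cortical class. In the Capza2+/- library CA2 was highest with at least 1000 genes per nucleus, with nuclei thinned to 1000 UMIs and at Leiden resolution 2. CA1-like nuclei were at 800 and 766 CPM, so that CA3 stood 3.79-fold (3.69 to 3.90) and 3.67-fold (3.56 to 3.79) above CA1, and 9.58-fold and 9.09-fold above the dentate granule-like class (317 and 310 CPM). Oligodendrocyte-like nuclei were lowest, at 103 and 104 CPM, while their precursors had 1486 and 1182 CPM, 14.4-fold and 11.3-fold more. Pde4b was thus higher and Pde4d lower in oligodendrocyte-like nuclei than in their precursors, in both libraries.

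Pde7b, a cyclic AMP-specific enzyme that rolipram does not inhibit, differed widely among the excitatory neurons. Dentate granule-like nuclei had 403 CPM in the Capza2+/- and 382 CPM in the WT library, but CA1-like nuclei had 13.03 and 13.1 CPM and CA3-like nuclei 3.64 and 2.26 CPM. The other excitatory nuclei lay between dentate and CA1. Cluster 8 had 101.5 and 100.5 CPM and the subicular, entorhinal or cortical class 46.1 and 32.6 CPM. CA2-like nuclei had 21.2 and 30.9 CPM and cluster 12 had 19.5 and 19.1 CPM. The dentate level was 31.0-fold (26.1 to 37.1) and 29.1-fold (24.5 to 34.8) that of CA1, and 68.1% of the Capza2+/- and 59.6% of the WT Pde7b UMIs lay in dentate granule-like nuclei. Outside neurons it was high in oligodendrocyte precursor-like (430 and 442 CPM), cluster 20 (437 and 348 CPM) and astrocyte-like nuclei (275 and 288 CPM). It was low in oligodendrocyte-like nuclei, at 6.74 and 3.79 CPM, 63.9-fold (38.1 to 116) and 117-fold (53.2 to 320) under their precursors. After thinning, 30.5% of Capza2+/- and 28.9% of WT dentate granule-like nuclei had a Pde7b UMI, against 0.459% and 0.259% of oligodendrocyte-like nuclei. Unthinned, these shares were 82.7% and 79.7%, against 1.06% and 0.626%.

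Pde8b, a cyclic AMP-specific enzyme of high affinity for its substrate, was spread more evenly over the neuronal classes and clusters than Pde4b, Pde4d and Pde7b. Cluster 20, with only 71 and 50 nuclei, had the highest level, 510 CPM in the Capza2+/- and 655 CPM in the WT library. Astrocyte-like nuclei followed with 438 and 465 CPM. Dentate granule-like nuclei came next, at 263 and 254 CPM, and the other excitatory classes and clusters lay between 103 CPM (cluster 12, Capza2+/-) and 222 CPM (cluster 8, Capza2+/-). Oligodendrocyte-like nuclei were lowest, at 22.0 and 17.04 CPM, 19.9-fold and 27.3-fold under astrocyte-like nuclei in the Capza2+/- and WT libraries. Pde7b and Pde8b thus shared high levels in astrocyte-like and dentate granule-like nuclei, and their r over the 10 named classes was 0.61 in the Capza2+/- and 0.72 in the WT library.

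Pde1a, a calmodulin-activated enzyme, was highest in pyramidal-type neurons. Cluster 12 had 1398 CPM in the Capza2+/- and 1594 CPM in the WT library. Subicular, entorhinal or cortical excitatory-like (1271 and 1305 CPM), CA1-like (1178 and 1274 CPM) and CA2-like nuclei (1054 and 1343 CPM) followed, and these 3 classes are not separated, since the ranges of their 2 library values overlap. CA3-like nuclei had 728 and 694 CPM and dentate granule-like nuclei 164 and 168 CPM, so CA1 stood 7.18-fold (6.87 to 7.50) and 7.56-fold (7.20 to 7.95) above the dentate. Outside excitatory neurons, the non-neuronal cluster 20 had 587 and 490 CPM, above the excitatory cluster 8 (352 and 347 CPM). Inhibitory neuron-like (297 and 214 CPM) and oligodendrocyte precursor-like nuclei (278 and 196 CPM) also lay above the dentate. Astrocyte-like, oligodendrocyte-like and microglia-like nuclei lay between 61.0 and 103 CPM. Within the subicular, entorhinal or cortical class, cluster 17, led by Dpp10 and Foxp2, had 2.60-fold (2.42 to 2.79) in the Capza2+/- and 2.52-fold (2.37 to 2.69) in the WT library the level of cluster 16, led by Vwc2l.

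Pde1c, the calmodulin-activated relative of Pde1a, was instead highest in oligodendrocyte-like nuclei. They had 284 CPM in the Capza2+/- and 275 CPM in the WT library, 1.79-fold (1.46 to 2.22) and 2.79-fold (2.22 to 3.55) the level of their precursors (159 and 98.4 CPM). Inhibitory neuron-like nuclei had 63.4 and 49.4 CPM, CA1-like nuclei 5.63 and 4.86 CPM and dentate granule-like nuclei 2.64 and 2.91 CPM. The oligodendrocyte-like values lay above those of every other class or cluster in both libraries. Among inhibitory clusters it was at 108 and 70.6 CPM in cluster 18, led by Vip, and at 5.12 and 3.48 CPM in cluster 19, led by Hapln1.

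Pde2a, which cyclic GMP stimulates, had a narrow range among neurons, between 36.3 and 114 CPM. It was highest in cluster 8, with 102 CPM in the Capza2+/- and 114 CPM in the WT library, and nearly as high in CA1-like nuclei (102 and 113 CPM). Dentate granule-like nuclei had 36.3 and 38.6 CPM, and astrocyte-like nuclei were lowest, at 16.9 and 17.3 CPM. Over the 10 named classes its profile on the log2(CPM + 10) scale had an r of 0.91 in the Capza2+/- and 0.97 in the WT library with that of Pde1a, and no other pair of the 10 genes had so high an r in both. Correlations here are descriptions over 10 classes that share a library and differ in depth.

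Pde3a, which cyclic GMP inhibits, was close to 0 in excitatory neurons. Dentate granule-like nuclei gave 3 UMIs in 2013 Capza2+/- and 4 UMIs in 1469 WT nuclei (0.198 and 0.364 CPM). CA3-like nuclei gave 0 UMIs in the Capza2+/- library, which allows up to 0.727 CPM, and 2 in the WT library. It was found in inhibitory neuron-like (69.4 and 104 CPM), oligodendrocyte precursor-like (73.4 and 77.4 CPM) and oligodendrocyte-like nuclei (63.3 and 52.4 CPM). Inhibitory nuclei held 52.2% of its Capza2+/- and 68.2% of its WT UMIs, and within the class 86.2% and 84.7% of them lay in the tenth of nuclei with the most.

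Pde10a, a dual-substrate enzyme best known from the striatum, was present in all neuronal classes. CA1-like nuclei had 889 CPM in the Capza2+/- and 869 CPM in the WT library. Inhibitory neuron-like nuclei had 740 and 747 CPM, CA3-like nuclei 533 and 446 CPM and dentate granule-like nuclei 269 and 264 CPM, so CA1 stood 3.31-fold (3.19 to 3.44) and 3.29-fold (3.15 to 3.43) above the dentate. Oligodendrocyte precursor-like nuclei had 288 and 303 CPM, but oligodendrocyte-like nuclei had 31.4 and 35.3 CPM and microglia-like nuclei 22.4 and 27.2 CPM.

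Pde11a, also a dual-substrate enzyme, was high in a few neuronal classes and low in the others. It reached 145 CPM in the Capza2+/- and 202 CPM in the WT library in cluster 12, 144 and 148 CPM in inhibitory neuron-like nuclei and 89.3 and 87.1 CPM in CA1-like nuclei. CA3-like nuclei had 0.485 and 0.968 CPM and dentate granule-like nuclei 2.11 and 2.09 CPM, so CA1 was 42.3-fold (29.8 to 62.3) and 41.6-fold (27.5 to 66.0) above the dentate. After thinning, a Pde11a UMI was found in 9.08% of Capza2+/- and 8.14% of WT CA1-like nuclei. Unthinned, it was found in 38.2% and 35.8% of them, at median depths of 11023 and 9809.5 UMIs, against 0.917% and 0.957% of CA3-like nuclei at 16866 and 13388 UMIs.

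Within CA1, Pde11a was higher in nuclei with Dcn, a marker of ventral pyramidal neurons. CA1-like nuclei with at least 2 Dcn UMIs (34 Capza2+/- and 71 WT nuclei) had 185 and 198 CPM of Pde11a, and nuclei without a Dcn UMI (709 and 794) had 76.8 and 68.8 CPM. The Dcn group was 2.40-fold (1.97 to 2.90) higher in the Capza2+/- and 2.88-fold (2.43 to 3.40) in the WT library. It was also deeper, with medians of 15587.5 and 12191 UMIs against 10723 and 9595, and the part of depth was not tested. Pde4b was 1.503-fold (1.33 to 1.70) and 1.55-fold (1.39 to 1.72) and Pde1a 1.36-fold (1.28 to 1.45) and 1.39-fold (1.32 to 1.47) higher in the Dcn group. Pde4d was at 0.869-fold (0.792 to 0.952) and 0.839-fold (0.772 to 0.910), and the interval of Pde10a held 1 in both libraries. Pde1c was 13.9-fold (7.84 to 24.9) and 4.20-fold (2.11 to 7.98) higher in the Dcn group, from 28 and 15 UMIs, with 2 nuclei of at least 3 Pde1c UMIs in each library. The CA1 clusters split the same way: cluster 5, led by Dcn, had 127 and 125 CPM of Pde11a, and cluster 3 had 62.4 and 54.0 CPM.

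Inhibitory nuclei clustered alone, again without phosphodiesterase genes among the variable genes, fell into 14 subclusters. Pde11a was highest in subcluster 1, led by Hapln1, Vcan and Lamp5, with 693 CPM (611 to 783) in 35 Capza2+/- nuclei and 743 CPM (667 to 825) in 48 WT nuclei. Pde11a was itself among the leading genes of subcluster 1. Subcluster 13, led by Sntb1, had 547 and 662 CPM in 6 and 12 nuclei, and neurogliaform interneuron-like nuclei had 208 and 405 CPM in 13 and 20 nuclei. Somatostatin (Sst) interneuron-like nuclei had 3.57 and 2.10 CPM in 78 and 92 nuclei, from 3 and 2 UMIs. Pde4d was highest in the same subclusters 1 (5302 and 6108 CPM) and 13 (6539 and 6262 CPM), against 1427 and 1302 CPM in the Sst interneuron-like nuclei. Pde10a was lowest in Vip interneuron-like nuclei, at 329 and 458 CPM, while the Sst, parvalbumin and neurogliaform interneuron-like groups lay between 820.2 and 1338 CPM. Pde1a was at 249 and 247 CPM in Sst interneuron-like nuclei and at 8.30 and 15.7 CPM in parvalbumin (Pvalb) interneuron-like nuclei.

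Pde3a had another place among the inhibitory nuclei, and there the libraries differed. Subcluster 2, led by Ntng1 and Slc17a8, had 307 CPM (258 to 364) in the Capza2+/- and 254 CPM (213 to 300) in the WT library. Subcluster 11, led by Syt6 and Cxcl14, had 206 CPM (143 to 286) in 10 Capza2+/- nuclei and 820 CPM (711 to 941) in 22 WT nuclei, and Pde3a was itself among its leading genes. Subcluster 3, led by Vip, had 5.82 CPM from 1 UMI in 25 Capza2+/- nuclei and 272 CPM from 83 UMIs in 48 WT nuclei. In that subcluster 0 Capza2+/- and 5 WT nuclei carried at least 3 Pde3a UMIs, so the WT level came from few nuclei.

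**Figure D2:**
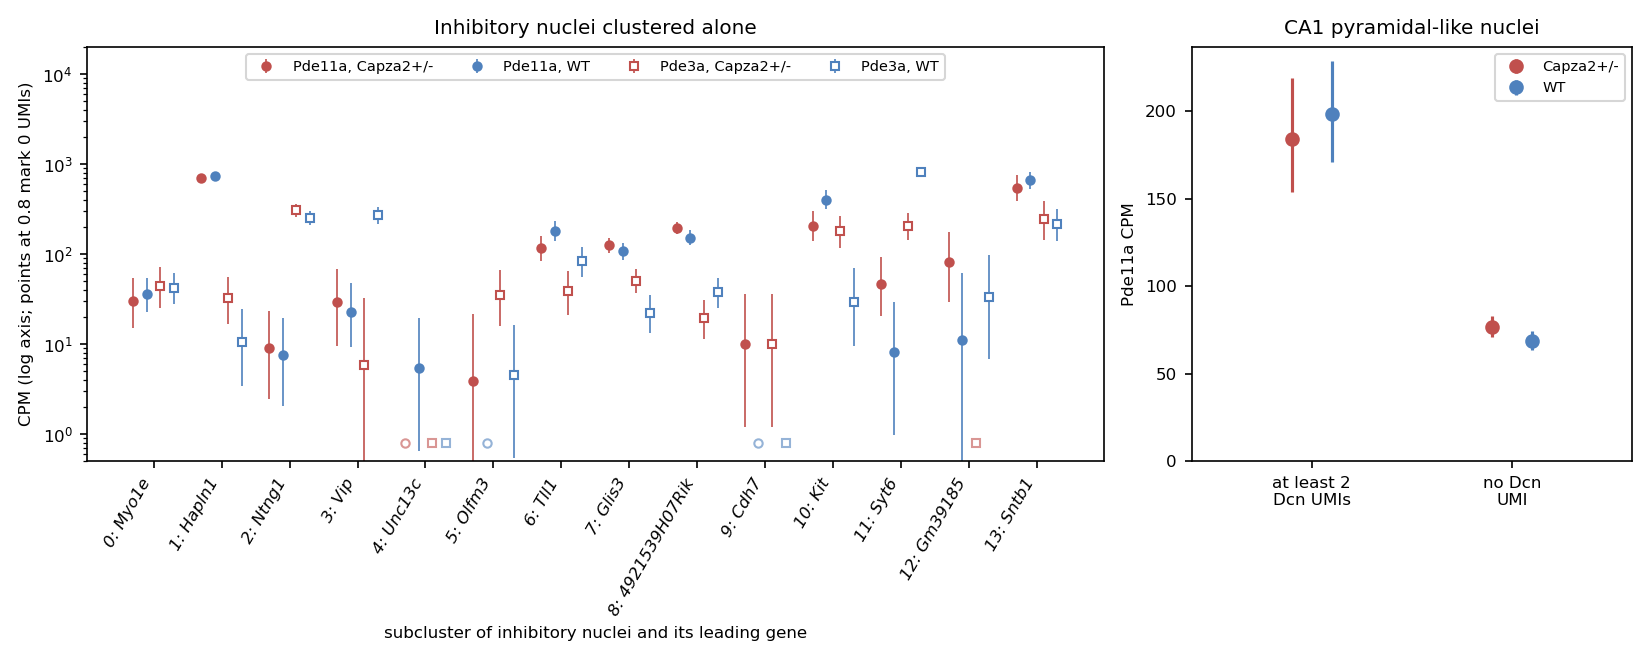
Left, Pde11a (filled circles) and Pde3a (open squares) in CPM on a log axis in the 14 subclusters of inhibitory nuclei, with Capza2+/- in red and WT in blue; points at 0.8 mark 0 UMIs and bars are 95% Poisson intervals. Right, Pde11a in CA1 pyramidal-like nuclei with at least 2 Dcn UMIs and with none, where the Dcn group is 2.40-fold higher in the Capza2+/- and 2.88-fold higher in the WT library.

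Ratios between the genotypes were taken in the 8 named classes that reached 200 nuclei in both libraries, and for genes that reached a floor of 200 UMIs in the class, both libraries summed. Of the 80 pairs of a phosphodiesterase and a class, 48 passed this floor, and 0 of the 48 were past 1.5-fold in either direction. Of all genes over the floor, the share past 1.5-fold in either direction was 0.858% in dentate granule-like, 0.995% in CA1-like, 1.05% in CA3-like, 1.21% in subicular, entorhinal or cortical excitatory-like and 0.926% in inhibitory neuron-like nuclei. It was 4.12% in astrocyte-like, 0.851% in oligodendrocyte-like and 1.83% in microglia-like nuclei. A count of 0 of 48 is therefore near the background and is no result about these genes. The log2 ratios (Capza2+/- over WT) ran from -0.58 to 0.50 with a median of 0.01, where the medians of all genes ran from -0.05 to 0.01 by class. The interval lay above 0 for 9 pairs, below 0 for 7 and held 0 for 32. The share of all genes whose interval leaves out 0 is not given here. These counts therefore describe the 48 pairs only and are no result about these genes. Counting intervals leave out the spread between nuclei and between mice, so they are too narrow for a statement on genotype.

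**Figure D3:**
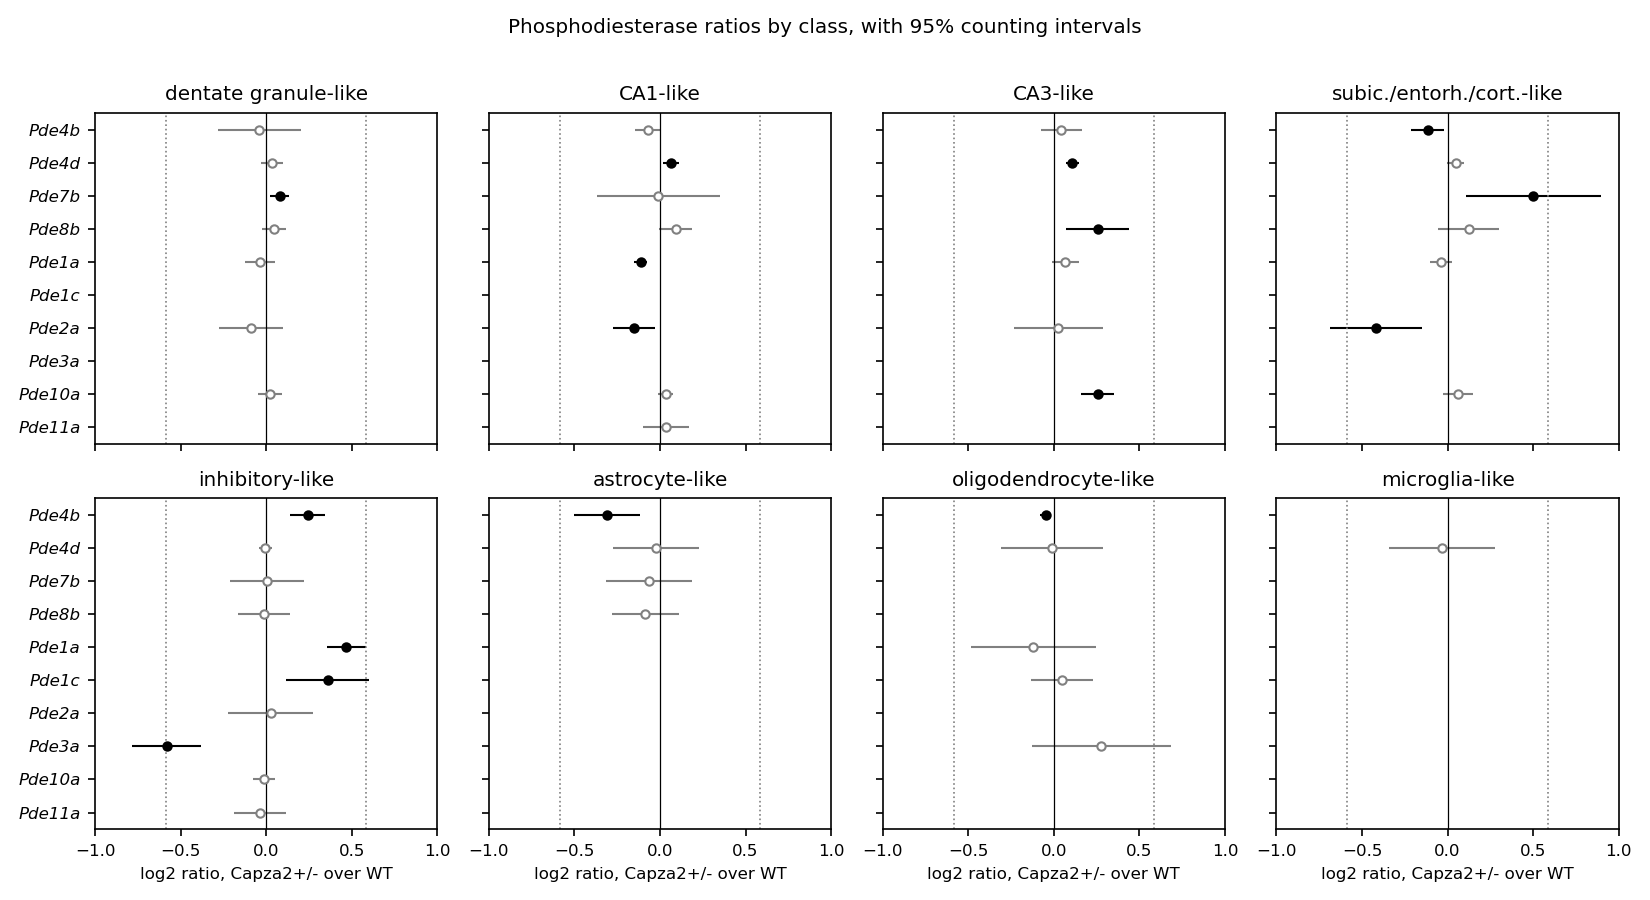
Log2 ratio (Capza2+/- over WT) of each phosphodiesterase with at least 200 UMIs, by class, with 95% counting intervals. Filled black points have an interval that leaves out 0 and open grey points one that holds it; dotted lines mark 1.5-fold, which 0 of 48 points pass. Pde3a in inhibitory neuron-like nuclei, at -0.58, lies nearest to them.

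Inhibitory neuron-like nuclei held 4 of the 16 pairs whose interval left out 0. Pde3a was at 69.4 CPM in the Capza2+/- and 104 CPM in the WT library (log2 -0.58, -0.78 to -0.38), just inside 1.5-fold. Its clusters went both ways: cluster 18, led by Vip, had 146 and 344 CPM, cluster 11 had 40.8 and 33.9 CPM, and cluster 19 had 64.9 and 10.4 CPM. In the largest of these, cluster 11, taken alone, the log2 ratio was 0.27 (-0.12 to 0.65), so the direction depends on the nuclei compared. Pde1a had 297 CPM in the Capza2+/- and 214 CPM in the WT library (log2 0.47, 0.36 to 0.58), Pde1c 63.4 and 49.4 CPM (0.36, 0.12 to 0.60) and Pde4b 343 and 290 CPM (0.24, 0.14 to 0.34). Some marker lists of other classes were also higher in the Capza2+/- nuclei of this class. The oligodendrocyte list summed to 323 CPM in Capza2+/- and 174 CPM in WT nuclei (8 markers), the CA1 list to 286 and 229 CPM (6 markers) and the inhibitory list to 11598 and 11767 CPM. The dentate granule list was at 335 and 333 CPM, the oligodendrocyte precursor list at 308 and 336 CPM and the choroid plexus list at 122 and 54.4 CPM. Of interneuron types, the Sst list summed to 1402 and 1223 CPM and the Pvalb list to 259.6 and 329 CPM. Their part in the ratios of Pde1a, Pde1c and Pde4b was not tested. A subcluster of 29 Capza2+/- and 26 WT nuclei led by excitatory genes such as Sv2b and Hs3st4 had 746 and 678 CPM of Pde1a. Its median depth was 26035 UMIs. Subcluster 7, with 23 and 33 nuclei and the astrocyte marker Slc1a3 among its leading genes, had a median of 22047 UMIs. The other subclusters had medians between 5696 and 13299.5 UMIs. Both deep subclusters are counted in the class, and whether they hold mixed barcodes was not tested.

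In CA3 pyramidal-like nuclei 3 genes had an interval above 0. Pde8b had 153 CPM in the Capza2+/- and 128 CPM in the WT library (log2 0.26, 0.07 to 0.44), Pde10a 533 and 446 CPM (0.26, 0.16 to 0.35) and Pde4d 3034 and 2814 CPM (0.11, 0.07 to 0.15). Pde10a in CA3 was at -0.0039 with Scrublet's automatic doublet threshold, and also just under 0 when the libraries were clustered separately. Median depth in the class was 16866 UMIs in the Capza2+/- and 13388 UMIs in the WT nuclei, and the CA3 list itself summed to 4002 and 3497 CPM. The choroid plexus list summed to 93.8 CPM in the Capza2+/- and 28.1 CPM in the WT nuclei of the class, the oligodendrocyte list to 92.8 and 65.2 CPM and the astrocyte list to 477 and 407 CPM. The part of depth and of these lists was not tested. In CA1-like nuclei Pde1a (1178 and 1274 CPM, log2 -0.11) and Pde2a (102 and 113 CPM, -0.15) were slightly lower and Pde4d (800 and 766 CPM, 0.06) slightly higher in the Capza2+/- library. With nuclei thinned to 1000 UMIs Pde2a there was at 0.17 and Pde4d at -0.13. Pde2a also changed sign with the libraries clustered separately, and Pde4d with no doublets removed and with the largest cluster only, so neither direction holds. Cluster 5, which has more Pde11a and Pde1a, held 247 of 783 Capza2+/- and 370 of 922 WT nuclei of the class. The ventral pyramidal list, which holds Dcn, summed to 30.5 CPM in Capza2+/- and 64.3 CPM in WT CA1-like nuclei. In these nuclei the CA1 list summed to 1309 and 1157 CPM, the dentate granule list to 69.0 and 49.9 CPM and the choroid plexus list to 134 and 66.1 CPM. The inhibitory list was at 355 and 359 CPM. The part of these lists in the CA1 ratios was not tested.

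Of excitatory nuclei named subicular, entorhinal or cortical-like, 3 genes had an interval that left out 0. Pde7b had 46.1 CPM in the Capza2+/- and 32.6 CPM in the WT library (log2 0.50, 0.11 to 0.89), Pde2a 72.5 and 96.9 CPM (-0.42, -0.69 to -0.15) and Pde4b 607 and 658 CPM (-0.12, -0.21 to -0.02). After thinning to 1000 UMIs Pde7b was at -0.96 and Pde2a at 0.46. Few UMIs are left then, and 16.4% of all pairs of a gene and a class were past 1.5-fold, so thinning cannot decide the direction. In this class Pde7b kept its sign in 11 of 12 alternatives and Pde2a in 12 of 13, all but thinning. Pde4b there was above 0 under 3 settings (thinned, every nucleus weighted alike, libraries clustered separately), at most at 0.08, so its direction does not hold. In the same nuclei the Sst interneuron list summed to 358 CPM in Capza2+/- and 206 CPM in WT nuclei, the dentate granule list to 195 and 157 CPM, the oligodendrocyte list to 158 and 226 CPM, the oligodendrocyte precursor list to 176 and 220 CPM and the choroid plexus list to 125.7 and 47.7 CPM. The part of these lists was not tested. Dentate granule-like nuclei had 403 and 382 CPM of Pde7b (log2 0.08, 0.02 to 0.14). Pde4b in oligodendrocyte-like nuclei, with 8938 and 9240 CPM, was at -0.05 (-0.08 to -0.02), and in astrocyte-like nuclei it had 424 and 526 CPM (-0.31, -0.50 to -0.12). Marker lists of other types went both ways in the astrocyte-like nuclei. In the Capza2+/- nuclei the oligodendrocyte list was at 368 against 277 CPM in WT, and the excitatory list at 1073 against 823 CPM. The choroid plexus list was at 612 against 172 CPM and the Vip interneuron list at 170 against 32.1 CPM. Lower in the Capza2+/- nuclei were the blood list, at 67.5 against 148 CPM, and the fibroblast list, at 131 against 192 CPM. The part of these lists was not tested. Pde11a, which had the most negative ratio over all nuclei, was at 0.04 in CA1-like nuclei (-0.10 to 0.17), and at -0.04 in the inhibitory neuron-like class (-0.19 to 0.11). Cluster 12 and CA2-like nuclei, too few for a ratio, had less Pde11a in the Capza2+/- library. Cluster 12 was at 145 against 202 CPM and CA2-like nuclei at 11.2 against 37.5 CPM. Cluster 12 held 16.7% of the Capza2+/- and 30.2% of the WT Pde11a UMIs.

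Over all nuclei kept, Pde11a had 39.9 CPM in the Capza2+/- and 56.0 CPM in the WT library (log2 -0.49, -0.57 to -0.41), Pde3a 11.2 and 15.4 CPM (-0.46, -0.61 to -0.31) and Pde1a 605 and 744 CPM (-0.30, -0.32 to -0.28). Pde7b had 161 and 131 CPM (0.30, 0.25 to 0.34). None of the 10 was past 1.5-fold, where 1.42% of all genes over the floor were. The classes that hold these genes also differed in share: cluster 12, highest in Pde11a, was 1.93% of the Capza2+/- and 4.398% of the WT nuclei, CA1-like nuclei were 11.5% and 15.1%, inhibitory neuron-like nuclei 4.74% and 7.29%, and dentate granule-like nuclei, rich in Pde7b, 29.6% and 24.1%. In such a sum, fewer nuclei of a type and less RNA per nucleus cannot be told apart. With the Capza2+/- cluster levels set to the WT make-up, an alternative chosen after seeing the data, the log2 ratio was -0.16 for Pde11a, -0.10 for Pde1a, 0.09 for Pde7b and -0.37 for Pde3a. Pde2a moved to -0.14 (as summed, -0.21), Pde8b to 0.04 (0.12) and Pde1c to 0.05 (0.06). Pde10a, at -0.12 as summed, was then at 0.02, Pde4d at 0.10 (as summed, -0.03) and Pde4b at -0.05 (0.02), so the direction of these 3 differed between the measures. Capza2 was at -0.47 on this measure.

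**Figure D4:**
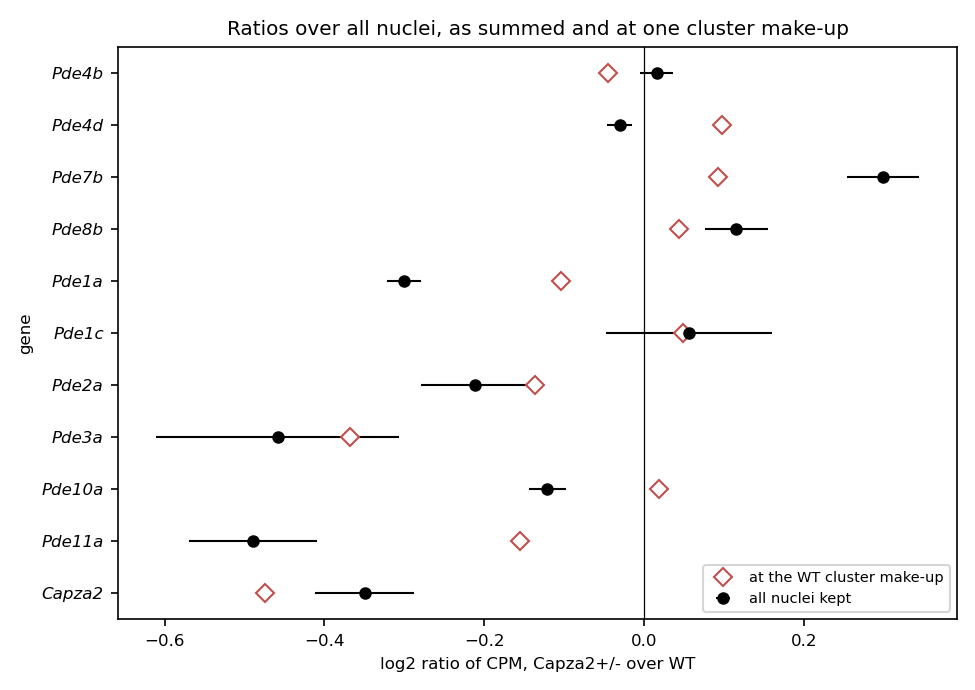
Log2 ratio of CPM (Capza2+/- over WT) of each phosphodiesterase and of Capza2 over all nuclei kept (black, with 95% counting intervals) and with the Capza2+/- cluster levels at the WT cluster make-up (open diamonds). Pde11a lies at -0.49 and -0.16 on the 2 measures and Pde7b at 0.30 and 0.09.

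Genes with the most similar class profile were ranked by the lower of the r values of both libraries, over 10 named classes and 10985 genes. The closest to Pde10a were Ptprn2 (0.99), which encodes a dense-core vesicle protein, Grm5 (0.97), the metabotropic glutamate receptor 5, and Osbpl6 (0.97). Those closest to Pde1c were Sema6a (0.98), a semaphorin gene, Cdh20 (0.94) and Prrg1 (0.92), and those closest to Pde3a were Sox2ot (0.97), Erbb4 (0.96), the neuregulin receptor, and Afap1 (0.91). Pde8b was closest to Gpm6a (0.96), Pank1 (0.95) and Wwc1 (0.90), and Pde1a to Cacna1i (0.95), a T-type calcium channel gene, Sh3gl2 (0.94) and Homer1 (0.93). Pde4d was closest to Fstl5 (0.94), Mast1 and Kcnq5 (both 0.90), and Pde2a to Pcnx2 (0.93), Zdbf2 (0.92) and L1cam (0.91). Pde7b was closest to Prkd1 (0.91), Adcyap1r1 (0.91), the receptor of the peptide PACAP, and Ankrd6 (0.88), Pde4b to Pgap1 (0.90), Srgap1 (0.88) and Ankrd28 (0.85), and Pde11a to Cdh7 (0.89), Rab3c (0.89) and Frmpd3 (0.87).

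Of the pathway lists, 1 of 226 pairs of a list member and a class was past 1.5-fold, which is near the background and no result about these genes. Of the 14 other cyclic nucleotide phosphodiesterases, 9 passed the floor in some class, giving 30 pairs, of which 0 were higher and 1 was lower past 1.5-fold. That was Pde4a, another cyclic AMP-specific gene of family 4, in CA3 pyramidal-like nuclei, with 24.0 CPM in the Capza2+/- and 37.4 CPM in the WT library (log2 -0.64, -1.04 to -0.24). Pde4a was also lower in dentate granule-like (100 and 115 CPM, log2 -0.19), CA1-like (79.0 and 96.8 CPM, -0.29), subicular, entorhinal or cortical excitatory-like (92.2 and 124 CPM, -0.43) and inhibitory neuron-like nuclei (56.6 and 75.4 CPM, -0.41), with every interval below 0. In CA2-like nuclei, too few for a ratio, it had 91.7 and 79.6 CPM. In CA3 pyramidal-like nuclei 0.798% of all genes over the floor were lower past 1.5-fold. Pde3b and Pde8a, relatives of the 10 genes, had sharp places of their own, and Pde8a was named after its values were seen. Pde3b had 1611 CPM in Capza2+/- and 1699 CPM in WT microglia-like nuclei, where Pde3a gave 0 and 1 UMIs. Pde8a had 578 and 620 CPM in oligodendrocyte-like nuclei, where Pde8b was lowest.

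Of the 10 adenylyl cyclases, which make cyclic AMP, 8 passed the floor in some class, and 0 of 30 pairs were past 1.5-fold. Over all nuclei Adcy2 had 417 CPM in the Capza2+/- and 402 CPM in the WT library, Adcy9 249 and 264 CPM and Adcy1, which calmodulin activates, 200 and 185 CPM. Of the 8 guanylyl cyclase genes 4 passed, with 0 of 17 pairs past 1.5-fold, among them Gucy1a2 (365 and 363 CPM) and Gucy1b1 (74.2 and 72.4 CPM), subunits of the nitric oxide receptor. The 19 cyclic nucleotide effectors gave 0 of 45 pairs, with Prkg1, protein kinase G, at 1215 and 1074 CPM and Rapgef4, an Epac gene, at 319 and 346 CPM. The A-kinase anchoring proteins, 12 of 13 found in the files, gave 0 of 60 pairs (Akap6, 490 and 484 CPM), the 21 receptors that act through cyclic AMP 0 of 20 (Htr4, a serotonin receptor, 203 and 190 CPM) and the 4 calmodulin genes 0 of 24 (Calm2, 463 and 423 CPM). Where at least 3 members of a list passed the floor in a class, the median log2 ratio of the list ran from -0.27, for the other phosphodiesterases in excitatory nuclei named subicular, entorhinal or cortical-like, to 0.19, for the calmodulins in oligodendrocyte-like nuclei.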

How the data were processed

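Nuclei were isolated from frozen hippocampus with a Dounce homogenizer and a density gradient, and libraries were made with the 10x 3' v3 kit, per the labels' protocols. The authors deposited raw counts of UMIs per gene and barcode, 1 matrix per library, with 7801 (Capza2+/-) and 6512 (WT) barcodes. They were made with Cell Ranger 7.1.0 on mm10, per the submitters' processing notes.

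Barcodes with at least 500 genes and at most 5% mitochondrial UMIs were kept (7211 and 6424). The highest Scrublet doublet scores were then removed at 0.8% per 1000 barcodes (416 and 330 nuclei), because Scrublet's own threshold marked 0.0139% of the Capza2+/- and 8.05% of the WT barcodes. Clustering in scanpy 1.11.5 (Python 3.11.15) used 2000 variable genes without any phosphodiesterase, 30 principal components, 15 neighbours and Leiden resolution 1 (leidenalg 0.10.2), which gave 27 clusters. Clusters of mixed markers (264 and 227 nuclei) and a shallow cluster led by hemoglobin genes (265 and 49 nuclei) are in the sums over all nuclei and in no class.

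UMIs were summed per library and class and scaled to CPM, a total of 1000000 UMIs. CPM has an exact Poisson interval and each ratio an exact conditional binomial interval (scipy 1.17.1). Levels are given for classes of at least 50 nuclei in each library. To thin nuclei to 1000 UMIs, 292 Capza2+/- and 106 WT shallower nuclei were left out. Genes always named are the 10 phosphodiesterases and Capza2. Also named are the 3 genes most like each of them and, of each pathway list, those past 1.5-fold and up to 3 with the most UMIs. The 10 genes and the lists were chosen with earlier results of these data known. No other gene on the same strand overlaps any of the 10, among the 32158 of 32285 gene IDs that matched GENCODE M21.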

Additional observations from a re-analysis of the deposited data

Results flagged for a closer look

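These log2 ratios (Capza2+/- over WT) had counting intervals on opposite sides of 0 in different classes or clusters of nuclei. With 1 library per genotype the differences between classes or clusters were not tested. Pde1a was at 0.47 in inhibitory neuron-like and -0.11 in CA1 pyramidal-like nuclei. Pde4b was at 0.24 in inhibitory neuron-like nuclei but at -0.12 in the subicular, entorhinal or cortical class (just above 0 under 3 alternative settings), -0.31 in astrocyte-like and -0.048 in oligodendrocyte-like nuclei. Within the inhibitory class Pde4b was at 0.55 in cluster 11 and -0.70 in cluster 19.

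Pde4d was at 0.27 in cluster 5 and -0.10 in cluster 3 of the CA1 pyramidal-like class, at 0.12 in cluster 11 and -0.10 in cluster 18 of the inhibitory class, and at 0.15 in cluster 16 and -0.29 in cluster 17 of the subicular, entorhinal or cortical class. Pde10a was at 0.090 in cluster 11, -0.17 in cluster 18 and -0.17 in cluster 19 of the inhibitory class, and at 0.23 in cluster 16 and -0.17 in cluster 17 of the subicular, entorhinal or cortical class.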

How the results depend on the processing

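Of the 48 pairs of a phosphodiesterase and a class, 0 were past 1.5-fold, against 1.12% of all pairs of a gene and a class. The number past it was 1 lower of 48 with no doublets removed (0.877% of all), 5 higher and 1 lower of 54 with Scrublet's automatic threshold (2.03%), and 1 lower of 46 with at least 1000 genes per nucleus (1.05%). It was 2 higher and 2 lower of 48 with nuclei thinned to 1000 UMIs (16.4%), and 1 higher and 1 lower of 48 with every nucleus weighted alike (1.26%). It was 6 lower of 51 with each library clustered separately (4.25%), 3 lower of 60 with a floor of 50 UMIs (5.46%), and 3 higher and 10 lower of 77 with no floor (23.0%). For the pathway lists, at 0 higher and 1 lower of 226, the counts were 0 higher and 2 lower with no doublets removed, with at least 1000 genes, with at most 1% mitochondrial UMIs or with the largest cluster of each class only. They were 3 higher and 2 lower with the automatic threshold, 14 higher and 16 lower after thinning, 1 higher and 1 lower with nuclei weighted alike, 3 higher and 11 lower with separate clustering, 5 higher and 11 lower with a floor of 50 UMIs, and 89 higher and 85 lower of 610 with no floor. A lower floor admits more pairs of few UMIs, and for the other settings the cause was not tested. Between 7 and 9 of 10 genes had the same highest named class in both libraries under every setting run.

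Of the 16 pairs whose interval left out 0, Pde1a was between 0.19 and 0.86 in inhibitory neuron-like nuclei over 13 alternatives. Pde1c there was between 0.12 and 0.84 and Pde4b between 0.02 and 0.55, and Pde8b in CA3 pyramidal-like nuclei was between 0.15 and 0.39. Ratios in a class moved by more than their counting interval in 92 of 616 cases. Of the 30 genes named as most alike, 15 to 30 were named again. No paired analysis was possible because each genotype has 1 library. One library per genotype also limits every ratio: genotype, mouse and library preparation cannot be told apart.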
